A study of Arabidopsis thaliana with 6 samples.

Results

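TPS-CIN is the cineole synthase of Arabidopsis thaliana, a monoterpene synthase known from roots. It is 1 of 13286 genes that the annotation of the Affymetrix ATH1 array ties to a probe set of their own, here the one given to AT3G25830 alone among 22746 probe sets. The gene was chosen by its lower signal on the lib arrays, so its values in that contrast are a description and carry no test. The study set the lib mutant, in the Columbia-0 background, against Columbia-0 wild type, with 3 arrays of each that the labels call biological replicates. Both genotypes were 8 days old, grew on vertical plates of Murashige and Skoog agar with 1% sucrose in a cycle of 16 h light to 8 h dark, with no treatment. Total RNA was labelled with biotin, and 1 array was hybridised per sample. The labels do not say which gene is changed in lib, and the series title speaks of a partial deficiency of isoleucine. Each sample is labelled as whole seedling while the design text of the series speaks of root tissue, which leaves the source of the RNA unsettled. Whatever the tissue, lower signal from fewer cells that express a gene cannot be told apart from lower signal per cell.

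Terpene synthases turn prenyl diphosphates into the carbon skeletons of volatile and non-volatile terpenes. Monoterpene synthases such as cineole synthase work in plastids on geranyl diphosphate, which is made from the isoprene units of the methylerythritol phosphate (MEP) pathway, and TPS-CIN releases 1,8-cineole as its main product along with other monoterpenes. The mevalonate pathway of the cytosol feeds the sesquiterpenes and triterpenes instead. Cineole is a volatile that roots are known to give off.

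The gene table of the TAIR10.1 assembly holds 2 loci with the symbol TPS-CIN, both protein-coding and both on chromosome 3. AT3G25820 lies at positions 9439146 to 9442774 and AT3G25830 at 9447409 to 9451037, and both span 3629 bases. They are separated by 4.63 kb that hold 1 gene, the pseudogene AT3G25826. A further terpene synthase, AT3G25810, known as a monoterpene synthase of flowers, lies beside them at 9430762 to 9434000. The array annotation lists 2 probe sets for the pair: one for AT3G25830 alone and one for both loci. The second cannot separate the copies, and whether the probes of the first also match transcripts of AT3G25820 was not tested.

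On the probe set of AT3G25830 alone, the MAS5 signal of TPS-CIN was 142, 146 and 76.4 on the lib arrays, against 673, 969 and 553 on the wild type arrays (replicates 1, 2 and 3 of each). All 3 lib arrays lay below all 3 wild type arrays, a separation that 38.1% of all probe sets showed in either direction and 20.2% with lib lower. The lowest wild type signal was 3.78 times the highest lib signal, whereas signals within a genotype spread over 1.91-fold in lib and 1.75-fold in the wild type. The gap between the genotypes was thus wider than the range within either of them. Lib replicate 3 was the lowest array of all, and wild type replicate 2 the highest.

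On the log2 scale, TPS-CIN averaged 6.87 ± 0.53 in lib and 9.47 ± 0.41 in the wild type (SD, n = 3 each). The log2 difference, lib minus wild type, was -2.61, which places the wild type 6.10-fold above lib. Its moderated SE was 0.28, and the SE from the 6 values of this probe set alone was 0.39. The 9 pairings of a lib array with a wild type array gave differences between -3.67 and -1.92. The mean linear signal in lib was 16.6% of that in the wild type. Over all 22746 probe sets, which include dim ones with wide scatter, this difference had rank 100 from the most negative. Among the 11373 whose mean log2 signal exceeded the median of all it had rank 2, and among the 6070 of these with exactly 1 gene rank 1. The gene was chosen by this fall, so its ranks are a description only. Its mean of 8.17 over the 6 arrays exceeded that median, while its lib mean lay below the median of every array (7.40 to 7.52).

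The probe set listed for both TPS-CIN copies was lower in lib as well. Its signal was 3040, 3413 and 2525 on the lib arrays, against 7649, 9634 and 10160 on the wild type arrays, and the genotypes did not overlap. It averaged a log2 signal of 11.54 ± 0.22 in lib and 13.15 ± 0.22 in the wild type (SD, n = 3 each), a log2 difference of -1.61 (moderated SE 0.15). This is a 3.06-fold higher level in the wild type. In the authors' deposited table, the ratio of lib to wild type was 0.166 for the probe set of AT3G25830 and 0.327 for that of both copies.

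**Figure D1:**
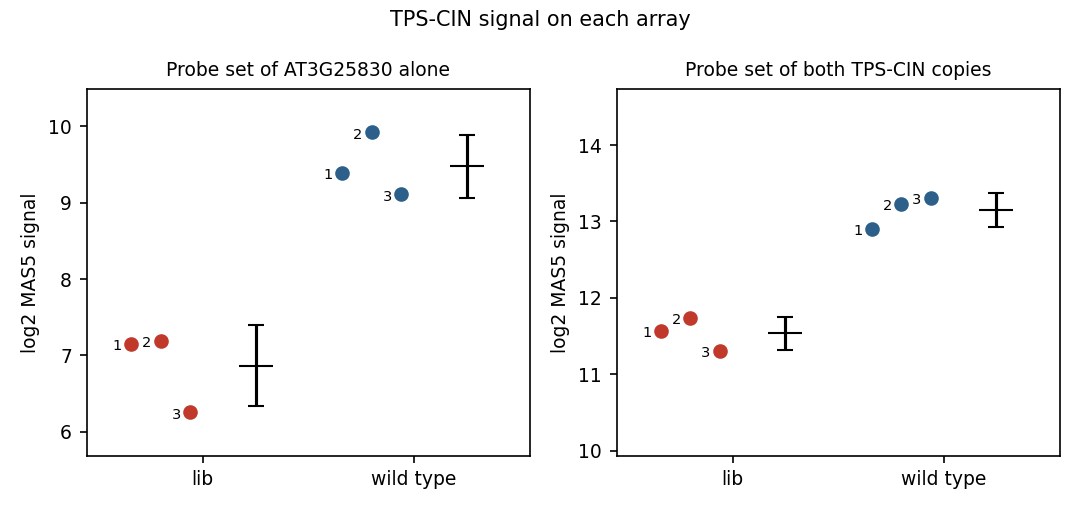
Log2 MAS5 signal of both TPS-CIN probe sets on each array (y axes, equal spans), with lib in red and wild type in blue; numbers are replicates, and black marks are the group mean and SD (n = 3). On both probe sets the 3 lib arrays lie below the 3 wild type arrays, with the wider distance on the probe set of AT3G25830 alone.

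The difference between the genotypes was thus larger on the probe set of AT3G25830 than on the one both copies share. Taken within each array, the log2 signal of the AT3G25830 probe set minus that of the shared one was -4.42, -4.55 and -5.05 on the lib arrays, against -3.51, -3.31 and -4.20 on the wild type arrays. These values did not overlap between the genotypes, and their means differed by -0.997 on the log2 scale. The sizes of these offsets are not read as levels, since probe sets can differ in binding and the shared one covers both copies. What sets their size was not tested. Only their shift between genotypes compares the 2 probe sets. Whether it comes from unequal change of the copies or from the probes was not tested. Among the wild type arrays, replicate 2 was highest on the AT3G25830 probe set and replicate 3 on the shared one. In lib, replicate 3 was lowest on both.

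Other terpene synthases did not share one direction. Across the array, 20.7% of the 22746 probe sets passed an adjusted p under 0.05 (limma with Benjamini-Hochberg adjustment), 10.4% higher and 10.3% lower in lib. These are 4708 probe sets, or 2705 without lib replicate 1. Of 31 other terpene synthase genes in the list, 18 had a probe set of their own; 4 of these rose, 2 fell and 12 did not pass. The 6 that passed are 33.3% of those measured. The median log2 difference of the 18 was 0.15, beside -0.043 over all probe sets. The list mixes bright and dim probe sets: 5 of the 18 had a mean log2 signal above the median of all probe sets, and 4 of these 5 passed, where 34.1% of all such probe sets did.

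Both falls had smaller fitted values than TPS-CIN, a difference that was not tested. AT3G32030, known to make sesterterpenes, had signals of 87.0, 107 and 60.3 in lib, against 250.0, 247 and 185 in the wild type. It fell by 1.45 on the log2 scale (SE 0.24, limma adjusted p = 0.00361). Its probe set carries the array maker's mark for probes that can bind more than 1 transcript. AT4G20230 had signals of 330, 334 and 329 in lib, against 563, 653 and 557 in the wild type, and fell by 0.83 (SE 0.11, limma adjusted p = 0.00103). In both genes the lib arrays lay below every wild type array. AT1G66020 was also without overlap, at a log2 difference of -0.60, but did not pass (limma adjusted p = 0.0523). It passed with log2(signal + 16) (limma adjusted p = 0.0448) and with array weights (limma adjusted p = 0.0312), which made 3 other terpene synthases lower.

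The rises included AT3G29410, another gene known for sesterterpene synthesis. Its signal was 478, 435 and 473 in lib, against 216, 175 and 300.4 in the wild type, a log2 difference of 1.04 (SE 0.19, limma adjusted p = 0.00480). AT1G33750 had 611, 492 and 555 in lib, against 316, 208 and 281 in the wild type, and rose by 1.06 (SE 0.17, limma adjusted p = 0.00257). AT1G31950 rose by 0.65 (SE 0.13, limma adjusted p = 0.00729), a call lost with no intensity trend (limma adjusted p = 0.0597). For these 3 genes every lib array exceeded every wild type array. The genotypes did not overlap for 7 of the 18 other terpene synthases, where 38.1% of all probe sets showed this. AT1G48800 passed as well (2.85, SE 0.83, limma adjusted p = 0.0391), but its signals were at most 14 in lib, and in the wild type 4.37 on replicate 1 and the lowest value of the scale on replicates 2 and 3. Its log2 difference was 0.63 with log2(signal + 16). It lost its call in 8 of 13 other settings, among them the omission of any single array other than wild type replicate 1 (limma adjusted p between 0.0789 and 0.122).

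Among terpene synthases that did not pass was the flanking gene AT3G25810, with signals of 21.6, 13.0 and 40.6 in lib, against 25.6, 34.5 and 30.4 in the wild type. Its log2 difference was -0.41 (SE 0.48, limma adjusted p = 0.614), and its arrays overlapped. The genes AT1G70080 (1.34), AT3G29110 (0.99), AT2G23230 (0.57), AT3G14490 (0.30), AT5G44630 (0.16, a sesquiterpene synthase known from flowers), AT3G29190 (0.13), AT4G20200 (0.029), AT1G48820 (-0.40) and AT3G14520 (-0.50) did not pass either. These and AT3G25810 are the 10 that stayed at signals between 1 and 40.6 on all 6 arrays, and at that level the array resolved little: their SEs ran from 0.48 to 1.16 on the log2 scale. AT5G48110, linked to diterpene synthesis in roots, was bright on all arrays (751 to 1048) and stood at 0.023 (SE 0.13, limma adjusted p = 0.930).

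**Figure D2:**
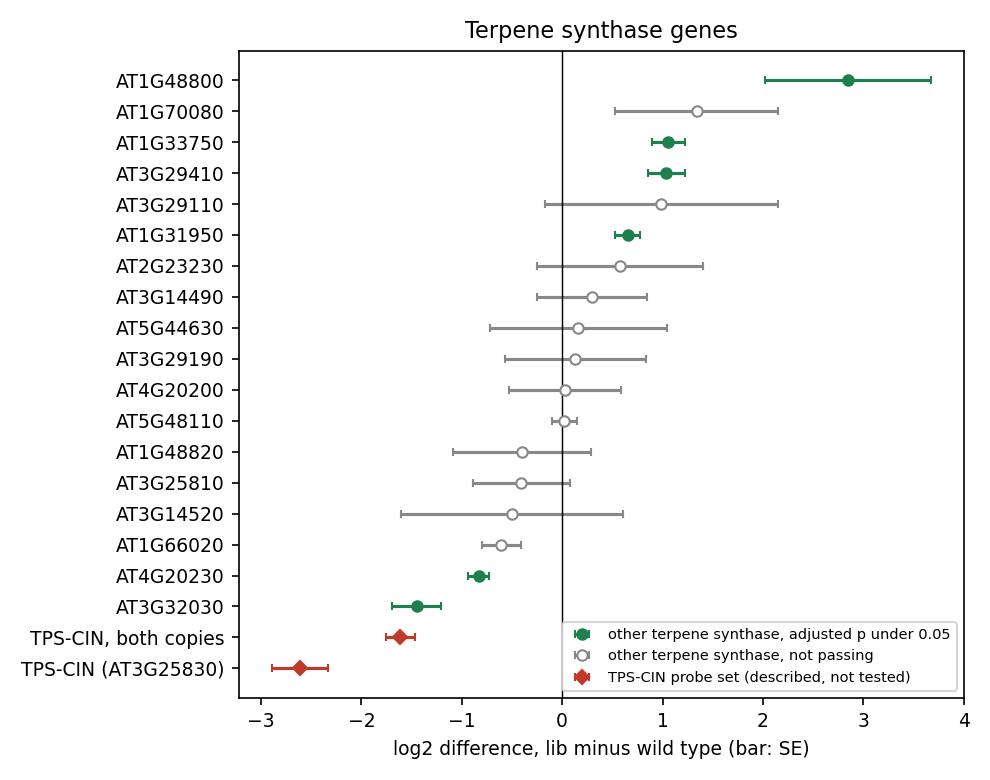
Log2 difference, lib minus wild type (x axis), with its SE for TPS-CIN and the 18 other terpene synthases with a probe set of their own (rows); filled green points passed an adjusted p under 0.05, open points did not, and red diamonds are the TPS-CIN probe sets, which were described and not tested. TPS-CIN stands at -2.61, and the other genes run from -1.45 for AT3G32030 to 2.85 for AT1G48800, whose signals are near the lowest values of the scale. Bars are moderated SEs.

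Little of the supply of precursors could be read. None of the 9 genes of the plastidial MEP pathway is named alone for a probe set in the annotation table used here. They may lie among the 8730 probe sets that this table leaves without a gene, or the 503 with several genes, and were not analysed here. Of 17 prenyl diphosphate synthases and isomerases 5 were measured and 1 rose, where 10.4% of all probe sets did. This was AT3G14510, of the geranylgeranyl diphosphate synthase family, at 1.11 (SE 0.28, limma adjusted p = 0.0226). Its signals were 82.3 to 131 in lib, against 37.2 to 51.9 in the wild type. Its call was lost in 6 of 13 other settings, among them the omission of lib replicate 1 or 3 or of wild type replicate 1 or 3 (limma adjusted p between 0.0511 and 0.0803). AT2G18620 (0.64), AT3G29430 (0.58), AT3G20160 (0.096) and AT3G32040 (-0.17) did not pass, and the median of the 5 was 0.58.

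Of 11 mevalonate pathway genes 2 were measured and 1 rose, where 10.4% of all probe sets did. AT3G54250, a mevalonate diphosphate decarboxylase, had signals of 467, 473 and 497 in lib, against 292, 230 and 276 in the wild type. It rose by 0.86 (SE 0.12, limma adjusted p = 0.00183), without overlap. AT1G31910, phosphomevalonate kinase, stood at 0.074 (SE 0.098, limma adjusted p = 0.661). Of 19 genes of root triterpene synthesis 2 were measured and neither passed. AT5G47980, an acyltransferase of the thalianol gene cluster, stood at -0.37 (SE 0.13, limma adjusted p = 0.0747) and LUP5, an oxidosqualene cyclase, at 1.38 (SE 0.83, limma adjusted p = 0.290). Without wild type replicate 2, LUP5 passed at 2.36 (limma adjusted p = 0.0465).

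Markers of tissue were read beside TPS-CIN, since its transcript is known from roots. Of 7 root hair and epidermis genes in the list 2 were measured, both of them root hair genes. EXPA7 at 0.20 (SE 0.17, limma adjusted p = 0.444) and EXPA18 at -0.0040 (SE 0.16, limma adjusted p = 0.991) overlapped between the genotypes. EXPA7 signals were 618 to 651 in lib, against 431 to 713 in the wild type. EXPA18 signals were 815 to 1077 in lib, against 782 to 1189 in the wild type. No gene of the root cap, endodermis and stele lists is named alone for a probe set in the annotation table, so these were not analysed here. Of 8 shoot photosynthesis genes 4 were measured and all stood below 0 (median -0.62, beside -0.043 over all probe sets). Over all probe sets 10.3% were called lower. Of these 4 genes, LHCB4.1 (-0.62, limma adjusted p = 0.0376) and RCA (-0.62, limma adjusted p = 0.0493) passed. PRK (-0.70, SE 0.41) and SBPASE (-0.28, SE 0.41) did not, and SBPASE stood at 0.0056 without lib replicate 2. Over the 6 arrays, signals were 730 to 1718 for LHCB4.1 and 309 to 772 for RCA. They were dim for PRK (27.6 to 79.7) and SBPASE (25.3 to 66.4). LHCB4.1 lost its call in 7 of 14 other settings, among them the omission of any single array other than wild type replicate 3 (limma adjusted p between 0.0641 and 0.122). RCA lost its call in 11 of 14, the omission of each array included (limma adjusted p between 0.0560 and 0.151). The part of tissue composition in the TPS-CIN values was not tested.

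The genes whose array profile was most like that of TPS-CIN were found by the root mean square difference between log2 values, each centred on its own mean over the 6 arrays. The search covered 6069 other probe sets with exactly 1 gene and a mean above the median of all. Nearest was AT1G70880, a Bet v I-type protein, at 0.20 log2 units. Its signals were 571, 670 and 396 in lib, against 2649, 3289 and 2524 in the wild type. As for TPS-CIN, its lowest array was lib replicate 3 and its highest was wild type replicate 2.

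The next in order were AT1G19540 (0.38), an isoflavone reductase-like protein, AT4G22610 (0.41), of the lipid transfer protein family, AT1G31710 (0.43), a copper amine oxidase, and AT2G16005 (0.44), with a lipid recognition domain. AT3G26460 (0.52) and AT4G14060 (0.53), again of the Bet v I type, and AT4G32340 (0.56), a tetratricopeptide repeat protein, completed the 8. The median of all candidates was 1.37, close to the 1.36 that a flat profile would have. Since likeness was measured on the same arrays, these genes were lower in lib by selection, with log2 differences between -2.39 and -1.58, and no test is given. Their order of replicates was selected for as well. Lib replicate 3 was the lowest lib array for 7 of the 8, and wild type replicate 2 the highest wild type array for 7. Over all 6069 candidates these shares were 45.2% and 34.8%. The shared TPS-CIN probe set was 0.60 from that of AT3G25830, and 15 candidates were closer. Of these 8 genes, 4 stayed among the nearest 8 without lib replicate 3 and 5 without wild type replicate 2. When ranked by Pearson correlation, or by deviations within the groups alone, 1 of the 8 stayed, so the list depends on the measure of likeness.

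**Figure D3:**
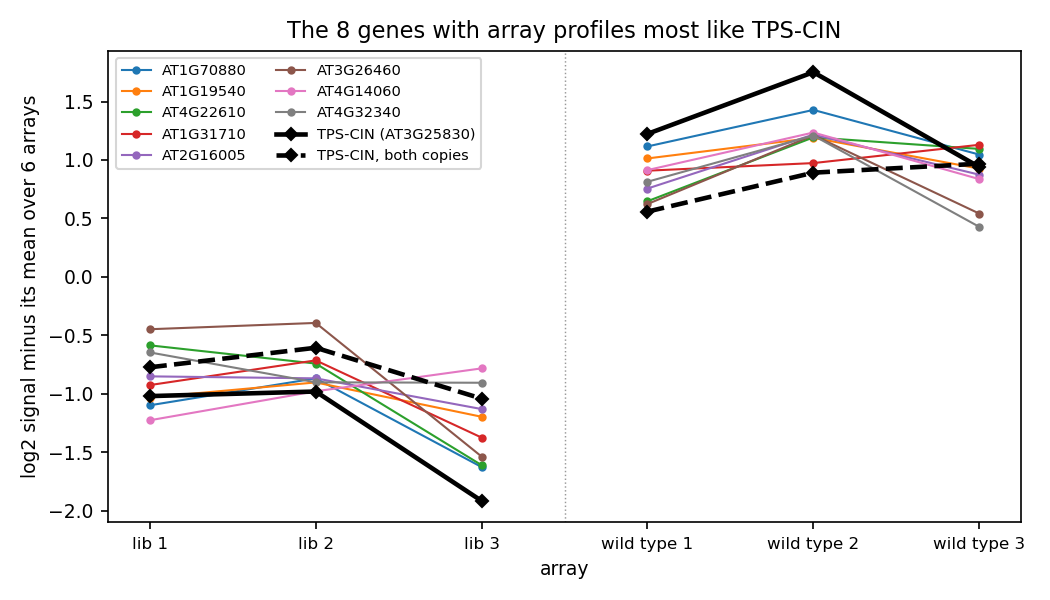
Log2 signal minus its mean over the 6 arrays (y axis) for TPS-CIN on its own and on the shared probe set (black, solid and dashed) and for the 8 genes most like it (colours), by array (x axis, lib then wild type); lines join arrays of one genotype for legibility, and replicates have no order. All 8 genes are lower in lib by selection, and AT1G70880 lies nearest at 0.20 log2 units. The fall of TPS-CIN (-2.61) has rank 1 of 6070 among it and the candidates, so a smaller step was given for each of the 8.

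Among genes around TPS-CIN on chromosome 3 with a probe set of their own, none passed as lower in lib. The second copy, AT3G25820, has no such probe set and is not counted as measured. The probe set it shares with AT3G25830 had a log2 difference of -1.61. Of the 10 genes on either side of AT3G25830, a window of 80.3 kb, 10 had a probe set of their own; 2 rose, none fell and 8 did not pass by limma. Over all probe sets 10.4% rose and 10.3% fell, so a count of 0 lower among 10 is near the background. HMT-1, a homocysteine methyltransferase, rose by 1.09 (SE 0.12, adjusted p = 0.000524 by limma). AT3G25790, a Myb-like transcription factor, rose by 0.61 (SE 0.17, adjusted p = 0.0358 by limma). It lost this call in 7 of 14 other settings, among them the omission of any single array other than wild type replicate 3 (adjusted p between 0.0743 and 0.104 by limma). AT3G25840, the nearest measured gene toward higher coordinates, stood at 0.069 (SE 0.16, adjusted p = 0.822 by limma). The median over the 10 neighbours was 0.19. At an unadjusted limma p under 0.05 none of the neighbours was lower in lib and 3 were higher. Over the array, 7480 of 22746 probe sets passed that threshold in either direction. The third was CLE27 (1.09, SE 0.37, adjusted p = 0.0708 by limma). AT3G25850 and AT3G25880 were dim, with SEs of 1.00 and 1.15, so a fall there could hardly be seen.

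**Figure D4:**
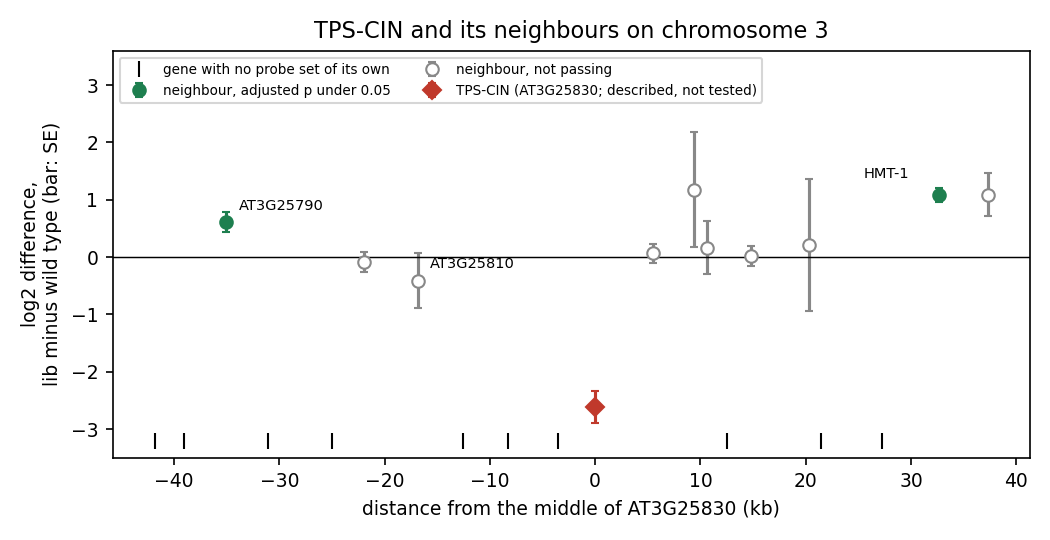
Log2 difference, lib minus wild type, with its SE (y axis) for TPS-CIN (red diamond, described and not tested) and the neighbouring genes with a probe set of their own, by distance from the middle of AT3G25830 in kb (x axis); ticks at the bottom are genes with none. TPS-CIN stands at -2.61, while its 10 measured neighbours lie at or above -0.41. The second copy, AT3G25820, is among the ticks. Bars are moderated SEs.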

How the data were processed

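Per the submitters' processing notes, the deposited log2 signals were made by the authors with MAS5, which gives 1 value per probe set and array and leaves wide scatter among dim probe sets. The arrays share a 2% trimmed mean of 496 on the linear scale, medians were 7.40 to 7.52 on the log2 scale, and 405 to 734 probe sets per array stood at the lowest value, a log2 of 0. Values were used as deposited. The authors' deposited table of p-values and ratios compares lib with wild type; its ratio is that of the mean linear signals, and its p-values were not used. The MAS5 version is not given in the sources used here.

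Names of probe sets come from the platform annotation and TAIR10.1 gene identifiers: 13513 had 1 gene, 503 several and 8730 none. A list gene counted as measured where a probe set named it alone; no list gene had more than 1. All probe sets were fitted with limma 3.58.1 in R 4.3.3 (lmFit, eBayes with an intensity trend, two-sided), with Benjamini-Hochberg adjustment over all 22746 and calls at an adjusted p under 0.05. The fit was tested on simulated data. Named were TPS-CIN with its copy, all measured terpene synthases, in the other lists the members that passed or else the 4 of smallest p, the 8 most similar profiles, and neighbours that passed; other named genes were chosen after their values were seen. The gene and the lists were chosen with earlier results of these data known. Alternatives were quantile normalization, centring on the median, log2(signal + 16), no intensity trend, array weights, only probe sets above the median, an adjusted p under 0.01, the replicate number as a block, each array left out, and other rankings of likeness. The number of arrays, 3 per group, limits the precision. The SEs and p-values of the fit rest on the spread between samples that the labels call biological replicates, moderated by limma over all probe sets.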

Additional observations from a re-analysis of the deposited data

How the results depend on the processing

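The log2 difference of TPS-CIN stayed between -2.79 and -2.30 in the 11 other settings, where -2.79 and -2.30 were the values without wild type replicate 3 and without lib replicate 3, and that of the shared probe set stayed between -1.74 and -1.50. With the replicate block, the TPS-CIN difference was -2.61 (SE 0.17), 3442 probe sets were called, and AT1G48800 and AT3G14510 lost their calls, which left 0 prenyl diphosphate genes higher. Same-numbered arrays did not deviate together (correlations of -0.23 to 0.047 over 3 pairs), but 3 pairs are too few to decide whether the numbers pair the samples. No named gene turned round among those called. Beside 4708 called probe sets, there were 2257 at an adjusted p under 0.01, 2383 with no intensity trend, 2705 to 3747 with each array left out, and 5602 with array weights. With no intensity trend 2 other terpene synthases were higher, 1 neighbour was higher and 0 shoot genes were lower. At an adjusted p under 0.01, 0 prenyl diphosphate genes and 1 neighbour were higher, and 0 shoot genes were lower. With only probe sets above the median, AT3G32030 and AT3G14510 were not among those tested. In that setting 1 other terpene synthase was lower, 0 prenyl diphosphate genes were higher and 1 triterpene gene (AT5G47980) was lower. Quantile normalization, centring and log2(signal + 16) each left 1 shoot gene lower. With each array left out, 0 to 1 prenyl diphosphate genes were higher, 0 to 1 triterpene genes higher, 0 to 1 shoot genes lower and 1 to 2 neighbours higher. Of the 8 most similar genes, 4 to 8 were shared with each array left out, 1 when ranked by Pearson correlation and 1 when ranked by deviations within the groups alone. The causes of these changes were not tested. The dim terpene synthases limit the family comparison: 13 of 18 lay below the median probe set.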
